A study of Mus musculus with 8 samples.

Results

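Oligo1a is 1 of the 8 oligodendrocyte clusters named in the cell annotation deposited with this single-cell RNA-sequencing series of the aged mouse brain. Its members are all cells that carry this name, 2834 of 15604 oligodendrocytes. The neighbouring clusters Oligo1b and Oligo1c hold 1880 and 3200 cells. The series holds 8 libraries from brains of mice aged 24 months, all dissociated in the presence of actinomycin D, sorted for live cells with a dead-cell dye and run as 10x Genomics 3′ libraries. Gray matter was taken from the frontal cortex, which the labels call prefrontal cortex, and white matter from the corpus callosum, optic tract and medial lemniscus. Wild-type (WT) mice were of strain C57BL/6 and gave 2 gray matter and 2 white matter libraries, 1 of each from batch 1 and from batch 2. The Rag1-/- mice, labelled NOD.129S7(B6)-Rag-1tm1Mom/J, gave 1 gray matter and 3 white matter libraries. Their Rag1 mutation is germline, and such mice lack mature T and B lymphocytes in every tissue. The label's strain name conflicts with the study's methods, which name B6.129S7-Rag1tm1Mom/J and give C57BL/6J as the background of knockouts and controls. By the labels 2 tissue samples went into each library. The study's list of mice gives pools of several animals, the same for both tissues of a WT batch and of Rag1-/- batch 1, and a single mouse for each Rag1-/- batch 2 library. The p-values measure the spread between such libraries.

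Oligodendrocytes make the myelin sheaths of the central nervous system and keep expressing myelin genes through adult life. Opalin (a transmembrane protein of oligodendrocyte membranes) and Mog (a glycoprotein of the outer myelin surface) are markers of mature cells. Mature oligodendrocytes differ among its regions. One kind is high in Ptgds, which makes prostaglandin D2, and another in Klk6, S100b and Hopx. In aged white matter some oligodendrocytes carry high C4b, a complement component, and Serpina3n, a secreted serine protease inhibitor, and the annotation names such a cluster ARO (age-related oligodendrocytes). A further cluster, IRO, holds interferon-responsive cells.

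The libraries held 47 and 146 Oligo1a cells in WT gray matter, 61 and 731 in WT white matter, 152 in Rag1-/- gray matter, and 589, 377 and 731 in Rag1-/- white matter. They gave between 392453 and 6849891 unique molecular identifiers (UMIs, counted molecules), with a median of 7434.5 to 10951 per cell. At most 5 cell barcodes were shared by any pair of libraries. Both WT batch 1 libraries stood apart from the other 6: of 7144 genes reaching 20 CPM (UMIs of the gene per 1000000 UMIs of the Oligo1a cells of a library), 980 were higher and 890 lower in both than in any other library, 67 and 13 of them by at least 2-fold. Cdkn1a, a cell-cycle inhibitor, stood at 1269 and 1006 CPM in these libraries against 0 to 8.35 in the others, and Fkbp5, a glucocorticoid target, at 117 and 70.8 against 3.80 to 8.30. Their summed CPM of 10 microglial genes was 981 and 634, against 93.4 to 367 elsewhere. Results are therefore also given without both of them. This leaves 1 WT library per tissue, and the spread is then taken from the 3 Rag1-/- white matter libraries, with 2 residual degrees of freedom. Rag1 gave 5 UMIs in all WT and 32 in all Rag1-/- Oligo1a cells, but 3′ counts outside the deleted part do not check the genotype. Genotype coincided with the experiment, the gene list and, by the labels, the strain. By the study's methods the Cell Ranger version also differed between WT and Rag1-/-, and between the Rag1-/- batches. In comparisons of WT with Rag1-/- these cannot be told apart from genotype.

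The cells carried the markers of mature oligodendrocytes in each library. Opalin stood at 859 and 1491 CPM in WT gray matter, 1271 and 1616 in WT white matter, 1208 in Rag1-/- gray matter, and 1367, 1779 and 2106 in Rag1-/- white matter. WT gray matter batch 1 was the lowest library, and the tissues overlapped. After thinning each cell to 2000 UMIs, 71.7% to 97.6% of Oligo1a cells still had an Opalin UMI (87.2% to 100% unthinned), against 5.20% to 26.8% of microglia of the same libraries, unthinned and at median depths of 5761.5 to 8787 UMIs. Mog ranged only from 897 to 1150 CPM. Neither marker was particular to Oligo1a. Median Opalin over libraries was 1429 CPM in Oligo1a, 1478 in Oligo1c, 979 in Oligo1b, 1876 in ARO and 77.7 in Oligo2a, and Mog lay between 1081 and 1226 CPM in all 8 clusters. Of 10 oligodendrocyte marker genes 6 had a positive mean log2 ratio to the other oligodendrocytes of the library, with a median of 0.04. Of all 10543 genes tested 4596 were positive, with a median of -0.03.

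Cntn1, Kit, Gabrr2, Btbd16, Gria2 and Ptgds had the highest levels relative to the other oligodendrocytes, and Klk6, Nkx2-9, S100b and Hopx the lowest. Since the clusters were drawn from these genes, the levels are a description without a test. For each library the CPM of Oligo1a was set against that of all its other oligodendrocytes, as a log2 ratio of CPM + 1. Of 6224 genes with a mean of 20 CPM in either, 307 were higher and 632 lower in all 8 libraries, 16 and 49 of them by at least 2-fold on average. The median ratio of all these genes was -0.02.

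**Figure D1:**
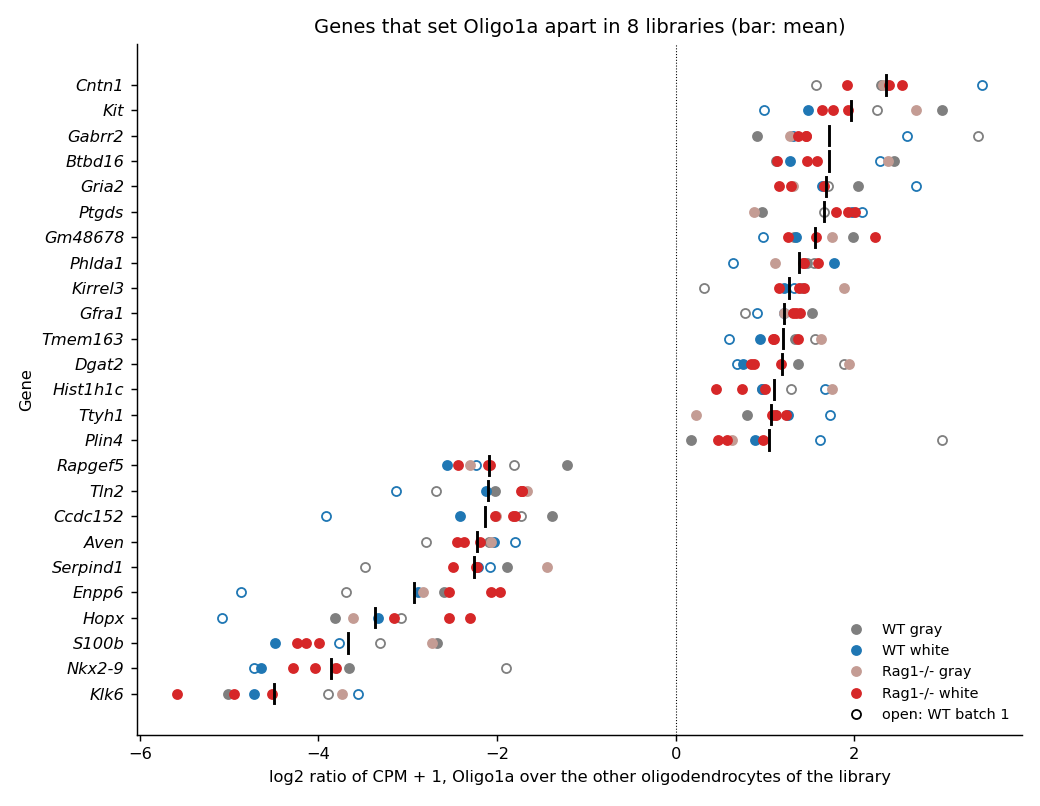
Log2 ratio of CPM + 1 in Oligo1a over the other oligodendrocytes of the same library (x axis) for the 15 genes with the highest and the 10 with the lowest mean ratio (y axis) among genes with 1 sign in all 8 libraries. Circles are libraries, coloured by group and open for both WT batch 1 libraries, and black bars are means. Cntn1 is highest at 2.36 and Klk6 lowest at -4.50.

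Cntn1, a contactin that mediates contact between axon and glia, had the highest ratio, 2.36 ± 0.54 (SD, n = 8 libraries). It stood at 48.4 and 51.3 CPM in WT gray matter, 65.9 and 48.5 in WT white matter, 37.0 in Rag1-/- gray matter, and 28.1, 19.4 and 26.1 in Rag1-/- white matter. All other oligodendrocytes of these libraries ranged from 2.90 to 15.7 CPM. Each Oligo1a value thus lay above every value of these pooled cells, and the Rag1-/- white matter libraries were the lowest. ARO cells alone had 11.1 to 32.4 CPM, which overlapped with Oligo1a of Rag1-/- white matter.

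Kit, the receptor tyrosine kinase of stem cell factor, followed with 1.97 ± 0.65. It stood at 38.2 and 61.3 CPM in WT gray matter, 34.6 and 51.2 in WT white matter, 84.8 in Rag1-/- gray matter, and 47.5, 26.5 and 23.2 in Rag1-/- white matter. The remaining cells, pooled in each library, had at most 17.7 CPM. ARO cells, at 24.7 to 53.6 CPM, were in the same range as Oligo1a, while Oligo1b had at most 14.9 CPM. These genes were sparse per cell: after thinning to 2000 UMIs, 3.69% to 11.8% of Oligo1a cells had a Kit UMI and 3.15% to 10.9% a Cntn1 UMI (12.2% to 31.5% and 10.9% to 25.3% unthinned). Of microglia, unthinned and with a median of 5761.5 to 8787 UMIs, 0.128% to 2.29% had a Kit UMI and 0.697% to 2.70% a Cntn1 UMI.

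Further receptor and adhesion genes among the 15 highest ratios were Gabrr2 (a GABA receptor subunit, 1.72 ± 0.83), Gria2 (an AMPA glutamate receptor subunit, 1.69 ± 0.49), Kirrel3 (an immunoglobulin-type adhesion protein, 1.27 ± 0.44) and Gfra1 (a receptor for glial cell line-derived neurotrophic factor, 1.21 ± 0.25). Gria2 reached 38.2 and 33.5 CPM in WT gray matter and 31.9 in Rag1-/- gray matter, against 19.8, 12.1, 7.03, 11.6 and 10.3 in white matter. The gray and white matter libraries did not overlap. Microglia of the same libraries had 13.3 to 78.6 CPM of Gria2 in gray and 0 to 12.9 in white matter, and the part of free RNA in this tissue order was not tested. Gfra1 was even across libraries, at 40.8 to 56.0 CPM against 17.2 to 29.3 in the remaining cells.

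Ptgds was among the most abundant transcripts of the cluster. WT gray matter had 47996 and 19261 CPM of it, and WT white matter 40797 and 13828. The Rag1-/- gray matter library had 21280 CPM, and those from Rag1-/- white matter 15327, 14424 and 15423. Both WT batch 1 libraries were far above the other 6. The remaining cells ranged from 3511 to 15200 CPM over all 8 libraries, and lay below Oligo1a of the same library in each. The mean log2 ratio was 1.66 ± 0.48. Ptgds was shared with Oligo1b, whose median was 15699 CPM against 17342 in Oligo1a, and was lower in Oligo1c at 5694. Within Oligo1a of WT white matter batch 2, the median cell had 126 Ptgds UMIs per 10000, with a 10th percentile of 87.2 and a 90th of 214. Microglia of this library had 558 CPM, and 38.9% of them a Ptgds UMI. Dgat2, which makes triglycerides (1.19 ± 0.50), and Plin4, a lipid droplet coat protein (1.04 ± 0.90), were also higher. Plin4 was so mainly in WT batch 1, at 476 and 232 CPM against 10.3 to 28.9 in the other libraries.

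Genes of the other mature kind stood far below the remaining cells. Klk6, a secreted protease, gave 2.55 and 0 CPM in WT gray matter, 18.1 and 15.9 in WT white matter, 2.52 in Rag1-/- gray matter, and 7.47, 4.74 and 17.3 in Rag1-/- white matter, against 31.2 to 447 in the remaining cells. Its mean log2 ratio was -4.50 ± 0.71. S100b, a calcium-binding protein, stood at 17.8 to 44.8 CPM against 119 to 731, and Hopx, a homeodomain protein, at 7.84 to 102 against 114 to 509. Enpp6, a choline phosphodiesterase high in newly myelinating cells, stood at 4.94 to 76.6 CPM against 113 to 325. In each of these 3 genes no library of Oligo1a reached the lowest value of the remaining cells, pooled in each library. Hopx and Enpp6 were highest in Rag1-/- white matter 2 and 3. The transcription factor gene Nkx2-9 was almost absent, at 0 to 3.08 CPM against 11.7 to 55.8.

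Of all 10543 genes tested, 4596 had a positive mean log2 ratio to the remaining cells. In all 8 libraries 401 of them were higher and 777 of the 10543 lower. Among the gene lists, all 5 genes of the mature type 2 list were lower than in the remaining cells in each of the 8 libraries, with a median of -3.36. Of 45 genes that the study assigned to Oligo2 in its separate plate-based data, none had a positive mean ratio and 36 were lower in all 8 libraries, with a median of -1.28. Selenop (a selenium carrier, -1.79 ± 0.31) and Anln (anillin, -1.12 ± 0.31) were examples. Of 14 genes assigned there to Oligo1, 12 had a positive mean ratio, with a median of 0.59. The mature type 5/6 list, which holds Ptgds, was divided, with 4 of 8 genes positive, 1 higher and 3 lower in all 8 libraries, and a median of -0.01. Its other abundant members Car2 (a carbonic anhydrase, -0.29), Trf (transferrin, -0.79) and Apod (an apolipoprotein, -1.16) were higher in 0 of 8 libraries. Of 20 genes of fatty acid and myelin lipid synthesis 5 were positive and 7 lower in all 8 libraries, with a median of -0.14. Of 23 cholesterol synthesis genes, 13 were lower in all 8 libraries, with a median of -0.39. Hmgcs1, an early enzyme of the pathway, had -0.53 ± 0.18, while Insig1, which restrains it, had 0.38 ± 0.29 and was the 1 member higher in all 8. Lineage transcription factors (14 genes, median 0.11), myelin sheath genes (23, median 0.02) and cytosolic ribosomal proteins (81, median 0.10) had small ratios. All 10543 genes tested had a median of -0.03. Of the 81 ribosomal protein genes 77 were positive, with 18 higher and 0 lower in all 8 libraries.

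Within Oligo1 the nearest clusters shared parts of this pattern. By Pearson's r of log2(CPM + 1) over the genes tested, Oligo1c was the most similar cluster in 4 libraries, Oligo1b in 3 and ARO in 1. The ranges were 0.891 to 0.993 for Oligo1c and 0.906 to 0.986 for Oligo1b. Oligo2a, the least similar by its median, had 0.792 to 0.951, the lowest from 11 cells in WT gray matter 1. The clusters differ in cell number and so in depth. Oligo1c and Oligo1b had 922 and 164 cells in WT white matter 2, and 156 and 438 in WT gray matter 2. The part of depth in this order was not tested. Against Oligo1c, 107 genes were higher and 363 lower in all 8 libraries, led by Cntn1 (2.29 ± 0.92), Ptgds (1.78 ± 0.32), Kit (1.63 ± 0.42) and Kcnma1 (a potassium channel, 1.35 ± 0.93). Enpp6 (-1.45 ± 0.96) and Hopx (-1.30 ± 0.91) were the lowest. Against Oligo1b, 224 were higher and 244 lower, led by Kit (2.89 ± 1.13), Cntn1 (2.74 ± 1.42), Btbd16 (2.60 ± 0.57) and the noncoding gene Gm48678 (2.42 ± 0.65). Hopx (-2.13 ± 1.14) and Hcn2 (a channel of hyperpolarization-activated current, -1.69 ± 0.35) were lower than in Oligo1b.

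The share of Oligo1a was compared between tissues and genotypes. It was 16.5% (47 of 284 oligodendrocytes, exact 95% binomial interval 12.4 to 21.4) and 13.0% (146 of 1119, 11.1 to 15.2) in WT gray matter. In WT white matter it was 12.3% (61 of 494, 9.58 to 15.6) and 17.8% (731 of 4106, 16.6 to 19.0). Batch 1 was thus lower and batch 2 higher in white matter, and the tissues overlapped. Mean shares were 14.8% ± 2.48 and 15.1% ± 3.86 (SD, n = 2 each). The edgeR quasi-likelihood test gave a log2 fold change of 0.07 ± 0.27 (SE) with an adjusted p of 0.807, and the exact two-sided permutation test a p of 1, where the smallest possible is 0.333. Intervals cover counting error only.

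In Rag1-/- mice the share was 14.4% (152 of 1055, 12.3 to 16.7) in gray matter. It was 19.3% (589 of 3055, 17.9 to 20.7), 23.1% (377 of 1632, 21.1 to 25.2) and 18.9% (731 of 3859, 17.7 to 20.2) in white matter. The white matter libraries were all above the gray matter library and above both WT white matter libraries. The difference from WT white matter, 0.42 ± 0.24 on the log2 scale, missed the threshold (edgeR adjusted p = 0.203; exact permutation p = 0.1, the smallest possible with 2 against 3). The tissue difference in Rag1-/-, 0.50 ± 0.31, also missed it (edgeR adjusted p = 0.171; exact permutation p = 0.25, again the smallest possible). Without both WT batch 1 libraries the edgeR tissue difference in WT was 0.45 (adjusted p = 0.150) and the genotype difference 0.20 (adjusted p = 0.443).

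The composition of the remaining cells moved with tissue. ARO made up 0% to 0.352% of oligodendrocytes in gray matter and 6.99% to 21.7% in white matter. Oligo1b made up 25.7%, 39.1% and 43.2% in gray and 3.99% to 11.9% in white matter. Counted within Oligo1 alone, a base that holds Oligo1b but not ARO, Oligo1a was 23.5% and 19.7% of cells in WT gray matter, 26.6% and 40.2% in WT white matter, 19.9% in Rag1-/- gray matter, and 38.9%, 41.2% and 42.1% in Rag1-/- white matter. No gray matter library reached a white matter library. On this base the tissue difference in WT was 0.66 (edgeR adjusted p = 0.0906; exact permutation p = 0.333, the smallest possible). In Rag1-/- it was 1.03 (edgeR adjusted p = 0.0435), which rests on 1 gray matter library (exact permutation p = 0.25, the smallest possible). With ARO and IRO left out of all oligodendrocytes, the Rag1-/- difference missed the threshold (edgeR adjusted p = 0.0523). Within Oligo1 the genotype difference in white matter was 0.27 (edgeR adjusted p = 0.797). With ARO and IRO left out of all oligodendrocytes it was 0.19 (edgeR adjusted p = 0.484). In both counts a lower share of other clusters raises that of Oligo1a.

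**Figure D2:**
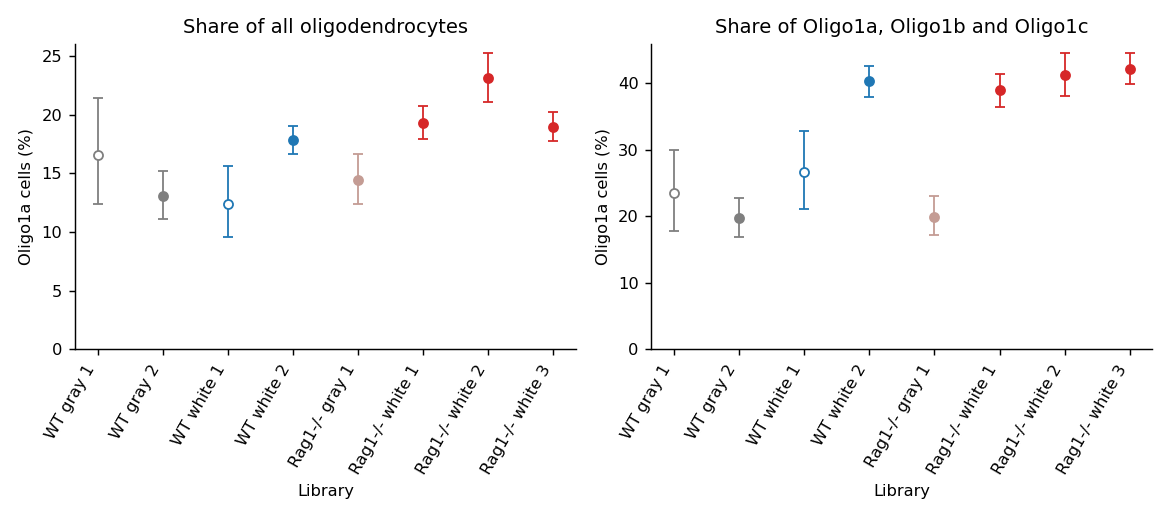
Oligo1a cells as a percentage of all oligodendrocytes (left) and of the cells of Oligo1a, Oligo1b and Oligo1c (right) in each library, with exact 95% binomial intervals as bars and open circles for both WT batch 1 libraries. Within Oligo1 the gray matter libraries lie at 19.7% to 23.5% and the white matter libraries at 26.6% to 42.1%.

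Genes were detected in like number per cell. Thinned to 2000 UMIs, the median Oligo1a cell had 1129 and 1136.5 genes in WT gray matter, 1116 and 1152 in WT white matter, 1122 in Rag1-/- gray matter, and 1142, 1118 and 1114 in Rag1-/- white matter, with at most 1 cell per library too shallow. The groups overlapped (exact permutation p = 1 for tissue in WT, 0.6 for genotype in white matter). Unthinned medians were 2762 to 3419.

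White matter Oligo1a cells of WT mice carried more C4b, Serpina3n, H2-D1 and the noncoding RNA 7630403G23Rik than gray matter cells, and less Ldhb, a lactate dehydrogenase subunit. These 5 genes were those called among 10543 at an adjusted p of 0.05 or less by the edgeR quasi-likelihood test over libraries (0.0474% of genes, 0.0379% higher and 0.00948% lower). An unadjusted p under 0.05 was reached by 433 genes, and DESeq2 called 6. Leaving out 1 library at a time gave 0 (without WT gray matter 2) to 6 calls. Libraries of both tissues did not overlap in 14.9% of all genes in the higher and 15.3% in the lower direction.

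C4b (chr17:34728380-34743882, minus strand, GRCm38) stood at 81.5 and 89.1 CPM in WT gray matter and 708 and 1161 in WT white matter. The Rag1-/- gray matter library had 50.4 CPM, and the 3 from Rag1-/- white matter had 463, 610 and 724. Every white matter library of either genotype lay above all gray matter libraries. The log2 fold change in WT was 3.46 ± 0.29 (edgeR adjusted p = 0.000954), and without both batch 1 libraries 3.69 (adjusted p = 0.00606). After thinning, 10.9% and 17.8% of WT gray matter cells and 59.0% and 76.6% of white matter cells had a C4b UMI (38.3%, 38.4%, 86.9% and 93.0% unthinned). Microglia of these libraries had one in 7.21% and 9.37% in gray and 24.7% and 25.2% in white matter, unthinned and at 18.2, 22.4, 66.9 and 177 CPM. In white matter batch 2 the median Oligo1a cell had 10.4 C4b UMIs per 10000, the 10th percentile 1.26 and the 90th 22.7. The level was below that of ARO, at 2176 and 2474 CPM in WT white matter. C4b has a close paralog, C4a, with which 3′ reads may be shared.

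Serpina3n (chr12:104406729-104414329, plus strand) stood at 20.4 and 2.14 CPM in WT gray matter and 82.3 and 126 in WT white matter. It was 2.52 in Rag1-/- gray matter and 58.2, 50.5 and 81.7 in Rag1-/- white matter. Gray and white matter libraries did not overlap in either genotype. The log2 fold change was 4.05 ± 0.59 (edgeR adjusted p = 0.0477). It was 3.44 by DESeq2 (adjusted p = 0.251), 2.46 by edgeR without WT gray matter 2 (adjusted p = 0.307), 5.67 without WT gray matter 1 (adjusted p = 0.0113) and 5.85 without both batch 1 libraries. The edgeR call was also lost without WT white matter 2 or any 1 of the Rag1-/- white matter libraries. Only 8 and 3 UMIs stood behind the gray matter values. Microglia of WT mice had 0.649 and 0.545 CPM in gray and 9.94 and 46.7 in white matter, and their part in the Oligo1a value was not tested. ARO cells of WT white matter had 787 and 910 CPM. Serpina3n belongs to a family of similar genes, so its reads may be split.

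H2-D1 (chr17:35262730-35267499, plus strand), a heavy chain of MHC class I, stood at 68.8 and 62.0 CPM in WT gray matter and 212 and 171 in WT white matter. The log2 fold change was 1.57 ± 0.21 (edgeR adjusted p = 0.0413). Rag1-/- libraries had 67.2 in gray and 91.9, 75.8 and 91.3 CPM in white matter, which lay near WT gray matter. Microglia of WT mice had 721 and 700 CPM in gray and 2182 and 1431 in white matter, and their part in the Oligo1a value was not tested. Other class I heavy chain genes are near-identical in sequence. B2m, their light chain, stood at 61.2 and 27.1 CPM in gray and 133 and 78.7 in white matter of WT mice. Its log2 fold change was 1.41 (edgeR adjusted p = 0.768). It was called with the mouse pool as a block (1.40 ± 0.22, edgeR adjusted p = 5.27e-07), a fit with 1 residual degree of freedom.

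7630403G23Rik (chr9:34042369-34059019, plus strand) gave 0 and 5.70 CPM in WT gray matter and 36.2 and 41.8 in WT white matter, a log2 fold change of 3.20 ± 0.45 (edgeR adjusted p = 0.0413). The gray matter values rest on 0 and 8 UMIs. Without WT gray matter 2 the WT gray matter count is 0 and the fitted change, 10.07, is no measure of size, and in the other settings it was 2.82 to 3.24. Rag1-/- libraries had 8.40 CPM in gray and 56.9, 43.6 and 45.8 in white matter. Ldhb (chr6:142490249-142507957, minus strand) fell from 73.9 and 67.7 CPM to 24.7 and 23.7, with a log2 fold change of -1.54 ± 0.22 (edgeR adjusted p = 0.0413). The Rag1-/- values were 54.6 in gray and 28.6, 29.9 and 32.0 in white matter. For both genes the white matter libraries of either genotype lay on 1 side of all gray matter libraries. Without both WT batch 1 libraries, which sets 1 WT library against 1 with the spread of Rag1-/- white matter, edgeR called C4b and Serpina3n, and the adjusted p-values of H2-D1, 7630403G23Rik and Ldhb were 0.190, 0.103 and 0.213.

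**Figure D3:**
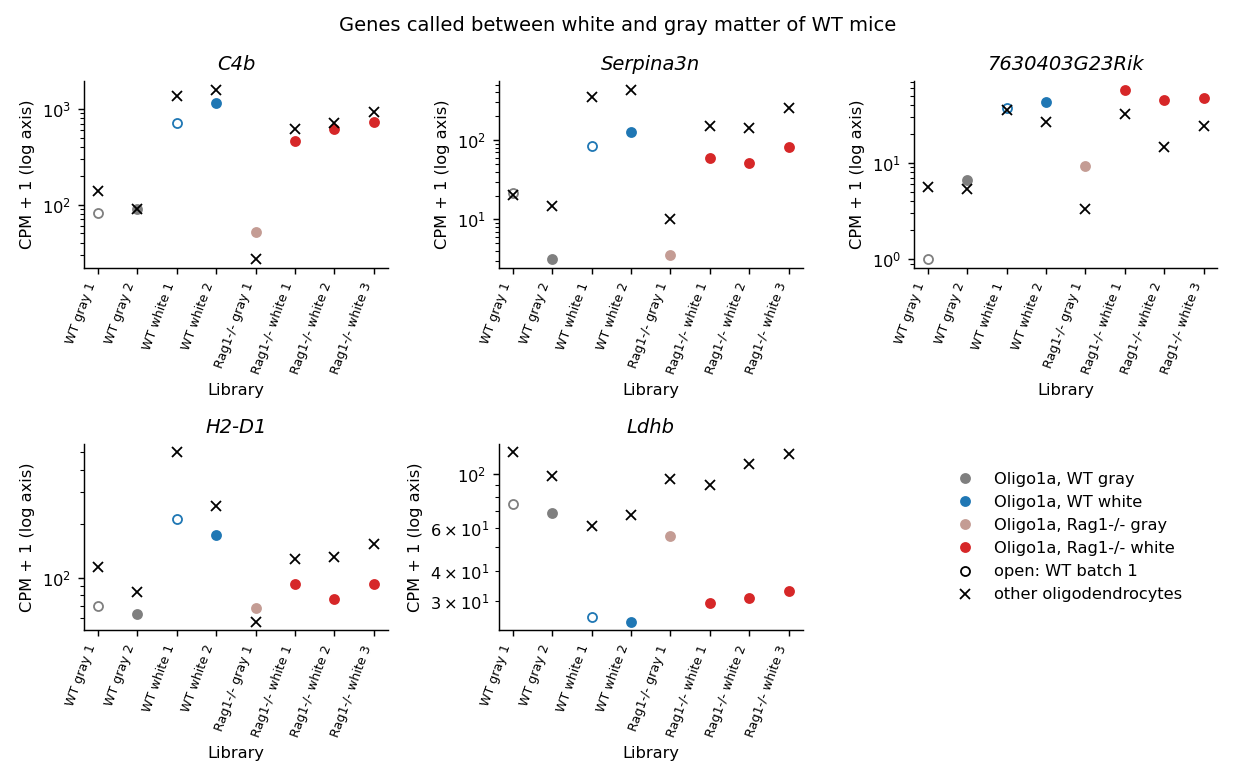
CPM + 1 on a log axis in each library for the 5 genes called between white and gray matter of WT mice. Circles are Oligo1a cells, open for both WT batch 1 libraries, and crosses are all other oligodendrocytes of the library. C4b of Oligo1a lies at 50.4 to 89.1 CPM in gray and 463 to 1161 in white matter.

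Since both tissues of a batch came from the same mice, the mouse pool was also fitted as a block. That fit leaves 1 residual degree of freedom and called 68 genes higher and 40 lower in WT white matter (0.645% and 0.379% of 10543), all 5 genes above among them, with C4b at 3.55 ± 0.16 and Serpina3n at 4.19 ± 0.32. Many of the others rest on few UMIs. Klk6 had 1 and 0 UMIs in gray and 11 and 109 in white matter, Sp7 (an osteoblast transcription factor also found in oligodendrocytes) 0 and 0 against 6 and 52, Rab3b (a vesicle GTPase) 0 and 1 against 3 and 100, and Anxa2 (annexin A2) 1 and 2 against 5 and 127. Fos, an immediate early gene, had 0 and 0 UMIs in gray and 1 and 118 in white matter, nearly all of them from batch 2. Igkc was called higher with 0 and 0 UMIs in gray and 67 and 0 in white matter, all of them from batch 1.

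Genes that the study assigned to ARO in its plate-based data were mostly of higher value in white matter. Of 91 tested, 3 were called higher (C4b, Serpina3n and 7630403G23Rik) and 72 had a positive log2 fold change, with a median of 0.85. Of all 10543 genes 0.0379% were called higher and 5354 were positive, with a median of 0.01. With the pool as block 24 of 91 were called higher and none lower, against 0.645% and 0.379% of all genes. Among them were Stat3 (a transcription factor of cytokine signaling, 1.41 ± 0.21, edgeR adjusted p = 5.09e-08), Sparc (a matricellular protein, 1.07 ± 0.16, adjusted p = 9.88e-08) and Gfap (an intermediate filament protein best known from astrocytes, 3.08 ± 0.60, adjusted p = 0.000133), chosen after their values were seen. Without the block their edgeR adjusted p was 0.0559, 0.768 and 0.144 in this order. The interferon-responsive list of the study had 13 tested genes, 1 called higher (H2-D1, with B2m in addition under the block) and a median of 0.88. The interferon-stimulated genes had 9 tested, none called, and a median of 0.54.

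Astrocyte and microglial genes had mostly lower values in white matter. Of all 10543 genes 5354 had a positive log2 fold change between WT tissues, with a median of 0.01. Of these 10543, 0.00948% were called lower without and 0.379% with the pool as block. Of 10 astrocyte genes 1 had a positive log2 fold change, the median was -1.72 and none was called. Their summed CPM was 400 and 211 in WT gray matter and 223 in Rag1-/- gray matter, against 110 to 193 in white matter. With the pool as block 2 of the 10 were called lower, among them Slc1a2, the astrocyte glutamate transporter (-2.30 ± 0.23; 86.6 and 92.6 CPM in gray, 21.4 and 17.7 in white matter). The part of astrocyte RNA in the tissue differences was not tested. Of 10 microglial genes none had a positive change, with a median of -1.02, and edgeR called none without the block and Csf1r, a growth factor receptor of microglia, with it (-1.70 ± 0.40, edgeR adjusted p = 0.00414). T cell genes summed to 2.55 and 0.713 CPM in WT gray and 26.4 and 4.53 in WT white matter, with 1 gene tested and not called, and the 1 gene tested of the oligodendrocyte precursor and of the endothelial list was positive and not called. The myelin sheath list (23 tested, 18 positive, median 0.14), the oligodendrocyte list (10, 8 positive, median 0.22) and cholesterol synthesis (23, 10 positive, median -0.15) had no called gene in either fit.

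In Rag1-/- mice the same comparison rests on 1 gray matter library, which the fit takes to vary like the others. That library came from batch 1, and of the white matter libraries only 1 did, so that batch and tissue are partly mixed. What batch contributes, with its Cell Ranger version and mouse pooling, was not tested. C4b was called higher in white matter (3.56 ± 0.39, edgeR adjusted p = 0.0124), and the hemoglobin genes Hbb-bs (-3.84 ± 0.47, adjusted p = 0.0151) and Hbb-bt (-3.82 ± 0.42, adjusted p = 0.0144) lower, out of 10543 (0.0285%, with 0.00948% higher and 0.019% lower). Hbb-bs stood at 379 CPM in gray and 10.4 to 47.9 in white matter, and at 0 to 1.43 in WT. By DESeq2 its log2 fold change was -3.82 and was not called. The gray matter library lay below all white matter libraries in 33.1% and above them in 31.3% of all genes. These transcripts mark red blood cells, and Hbb-bs and Hbb-bt are near-identical. With the pool as block 26 genes were called higher and 21 lower (0.247% and 0.199%), with 7630403G23Rik (2.73 ± 0.41) and Serpina3n among those higher, the latter against 3 UMIs in gray matter. Only Rag1-/- batch 1 has both tissues, so that these calls rest on 1 pair of libraries, with the spread taken from WT. The tissue difference of C4b was 3.46 in WT and 3.56 in Rag1-/-, that of H2-D1 1.57 and 0.35. A direct test of the difference between genotypes called 0 of 10543 genes by edgeR (229 at an unadjusted p under 0.05) and 0 by DESeq2 (75). By edgeR that difference was 0.10 for C4b (unadjusted p = 0.824). For H2-D1 it was -1.22 (edgeR unadjusted p = 0.0024, adjusted p = 1.00).

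**Figure D4:**
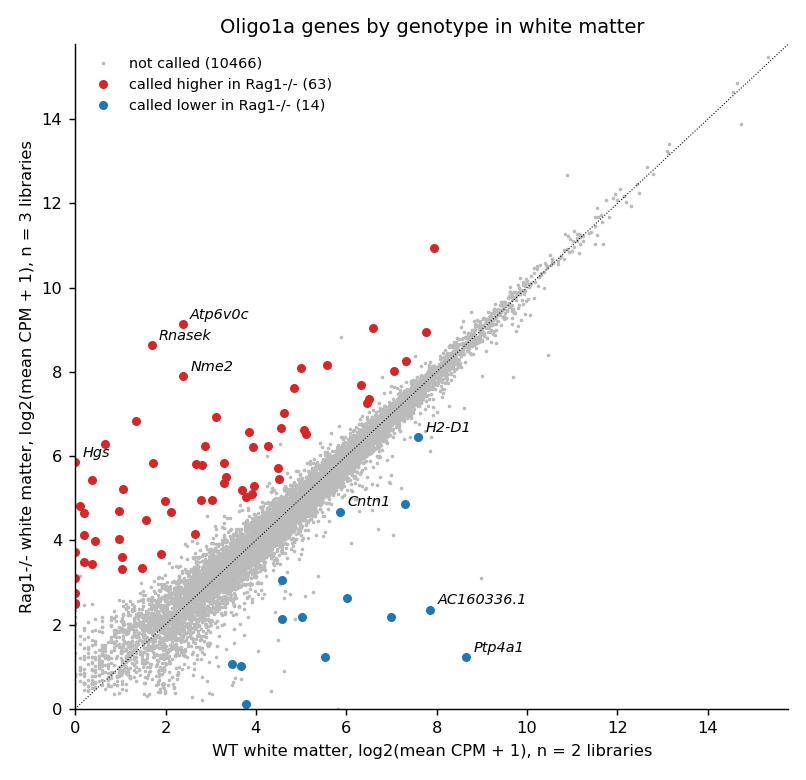
Each point is 1 of 10543 genes tested in Oligo1a, by its log2(mean CPM + 1) in WT white matter (x axis, 2 libraries) and Rag1-/- white matter (y axis, 3 libraries). Red and blue points are the 63 genes called higher and the 14 called lower in Rag1-/-, and the dotted line marks equal levels.

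Between Rag1-/- and WT white matter, Oligo1a cells differed in 77 genes, 63 higher and 14 lower in Rag1-/- (0.73% of 10543, with 0.598% higher and 0.133% lower). All 77 had libraries that did not overlap, which held for 8.81% of all genes in the higher and 16.3% in the lower direction. In 29 of the 63 and 9 of the 14, the genotype with less had a mean under 5 CPM. The Rag1-/- gray matter library stood outside the WT gray matter range in the same direction for 62 of 63 and 13 of 14, against 27.5% and 35.5% of all genes. The calls thus recurred in the other tissue of the same experiments. The genes of largest change in each direction, named below, also had the same sign in Oligo1b and Oligo1c. The log2 fold change of Atp6v0c was 7.30 in Oligo1a, 8.03 in Oligo1b and 7.58 in Oligo1c. That of Ptp4a1 was -8.20, -8.19 and -7.87 in this order. For none of these genes did edgeR call a difference between Oligo1a and either cluster. What genotype, labelled strain, experiment, read processing and gene list contribute cannot be told apart.

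Among the higher genes, Hgs, an endosomal sorting protein, gave 0 CPM in both WT white matter libraries and 56.9, 60.7 and 53.3 in Rag1-/- ones. That is at least 142-fold higher, against a floor of 3 UMIs over the WT libraries. Tnfsf13, a cytokine that acts on B cells, was at 0 in both WT libraries and at 12.7, 11.9 and 11.9 CPM in Rag1-/- (at least 30.2-fold). Atp6v0c, a subunit of the vacuolar proton pump, stood at 4.94 and 3.50 CPM in WT and 553, 550.1 and 580.1 in Rag1-/- (7.30 ± 0.26, edgeR adjusted p = 3.39e-08). Rnasek, also linked to this pump, was at 3.29 and 1.17 against 328, 431 and 427 CPM (8.19 ± 0.37, edgeR adjusted p = 2.38e-07). Nme2, a nucleoside diphosphate kinase next to the similar gene Nme1, stood at 6.59 and 1.90 against 198, 243 and 273 CPM (6.68 ± 0.40, edgeR adjusted p = 1.97e-06). Nudt8, Nanp, Zbtb9 and Hbb-bt were at 0 in both WT libraries and were at least 19.0-, 14.2-, 11.7- and 11.5-fold higher. Hbb-bs stood at 0 and 0.146 CPM in WT and 10.4 to 47.9 in Rag1-/- libraries.

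Among the lower genes, Ptp4a1, a tyrosine phosphatase, fell from 384 and 416 CPM to 2.42, 0.948 and 0.641 (-8.20 ± 0.29, edgeR adjusted p = 3.39e-08). The noncoding gene AC160336.1 stood at 287 and 174 CPM in WT and 5.05, 3.56 and 3.68 in Rag1-/-, and Amd2, a copy of the polyamine enzyme gene Amd1, at 166 and 84.5 against 1.76, 6.16 and 2.56. Fam220a, Coro1b (an actin regulator), Taf6l and Chtf8 had log2 fold changes of -5.00, -3.62, -3.03 and -2.67. Gm43713 was 1 of the 14 at 14.8 and 10.8 against 0, 0.237 and 0 CPM, and is annotated as antisense. 4933427D14Rik (-3.62) and Rps6ka4 (-3.35) completed the 10 with the largest change.

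The 2 smallest of the called decreases were genes already described. H2-D1 stood at 212 and 171 CPM in WT and 91.9, 75.8 and 91.3 in Rag1-/- white matter, a change of -1.08 (edgeR adjusted p = 0.00684). In microglia it stood at 2182 and 1431 CPM in WT and 1080.3, 1265 and 967 in Rag1-/- white matter, and their part in this difference was not tested. Cntn1 stood at 65.9 and 48.5 against 28.1, 19.4 and 26.1 CPM, a change of -1.08 (edgeR adjusted p = 0.0436). In both the genotypes did not overlap. Of 13 MHC class I presentation genes 5 had a positive change, with a median of -0.06 and H2-D1 the 1 called. Of 9 interferon-stimulated genes 3 were positive, with a median of -0.37 and none called, and of 91 genes of the ARO list 24, with a median of -0.20 and none called. All 16 glucocorticoid-type genes were negative, with a median of -1.50 and none called. Of all 10543 genes 5204 were positive, with a median of -0.0033, 0.598% were called higher and 0.133% lower. The glucocorticoid-type genes summed to 9565 and 7377 CPM in the WT batch 1 libraries and 1292 to 1884 in the other 6. Without both batch 1 libraries 88 genes were called, 73 higher and 15 lower, and without WT white matter 2, the deepest WT library, 30.

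The tissue difference of Oligo1a was tested against that of its neighbours, with the library as a block. Against Oligo1c no gene of 10960 was called by edgeR (432 at an unadjusted p under 0.05) or DESeq2 (143), and without both batch 1 libraries 15 were called. C4b changed by 3.46 in Oligo1a and 3.44 in Oligo1c (edgeR unadjusted p of the difference 0.968), and Ldhb by -1.54 and -1.71 (0.259). By the same test and in the same order, Serpina3n changed by 4.05 and 3.66 (0.595). H2-D1 changed by 1.57 and 1.10 (0.0378) and 7630403G23Rik by 3.20 and 1.61 (0.00787), neither called after adjustment. Against Oligo1b edgeR called 21 of 10724 genes (0.196%), 8 with a more positive and 13 with a more negative tissue difference in Oligo1a, and 690 had an unadjusted p under 0.05. DESeq2 called none (233 at an unadjusted p under 0.05), and without both batch 1 libraries 4 were called. Leaving out 1 library gave 2 (without WT white matter 1) to 139 calls (without WT gray matter 2). C4b changed by 2.40 in Oligo1b (adjusted p of the difference 0.277) and Serpina3n by 2.29 (adjusted p 0.0631).

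3 of these 21 genes had an adjusted p of 0.05 or less without both batch 1 libraries, where each WT tissue is 1 library and the spread comes from Rag1-/- white matter. Cd9, a tetraspanin of myelinating cells, stood at 1213 and 1229 CPM in WT gray matter and 1591 and 1706 in white matter of Oligo1a. In Oligo1b it was 979 and 935 in gray and 799 and 880 in white matter. The difference of log2 fold changes was 0.62 (edgeR adjusted p = 0.00662). H2-D1 stood at 95.6 and 96.0 CPM in gray and 177 and 110 in white matter of Oligo1b, a difference of 1.13 (edgeR adjusted p = 0.00383). Plin3, a lipid droplet coat protein, stood in Oligo1a at 91.7 and 97.6 CPM in gray and 54.3 and 54.5 in white matter, while Oligo1b had 166 and 138 in gray and 174 and 219 in white matter, a difference of -1.35 (edgeR adjusted p = 0.000118). In all 3 genes both batches had the same sign within each cluster.

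**Figure D5:**
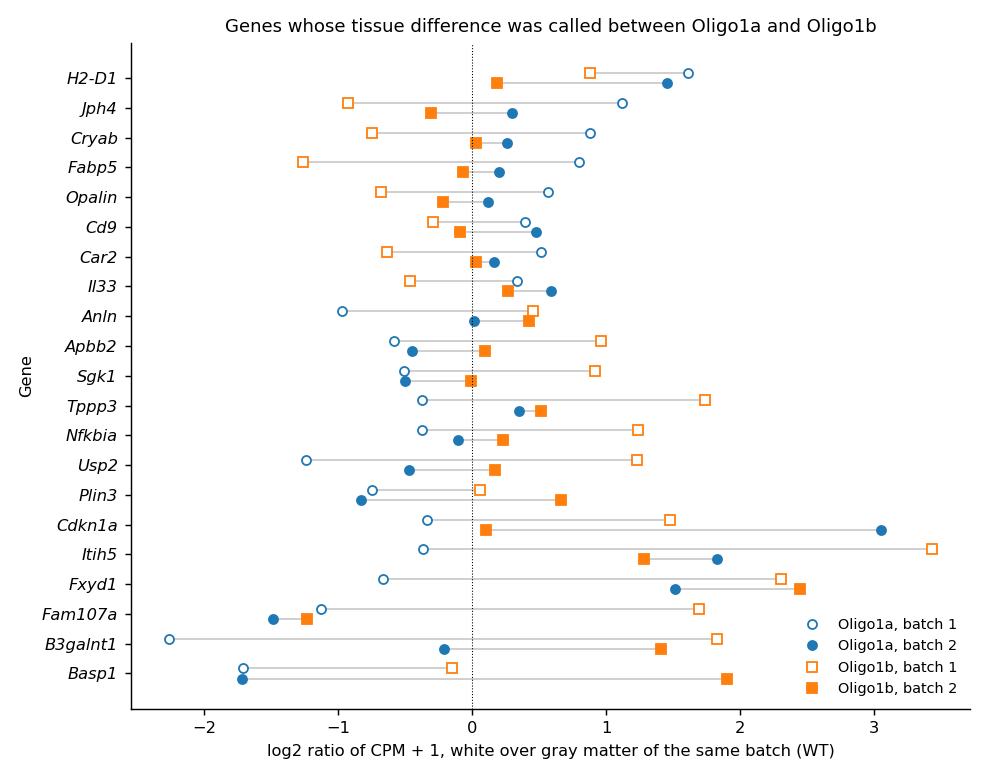
Log2 ratio of CPM + 1 in white over gray matter of the same batch of WT mice (x axis) for the 21 genes called between Oligo1a (circles) and Oligo1b (squares), with open symbols for batch 1 and filled symbols for batch 2. For Cd9, Opalin and Jph4 both circles lie right of 0 and both squares left of it, while for Cdkn1a and Itih5 the circles of both batches lie on opposite sides of 0.

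Opalin itself was among the 21. The tissue difference was 0.31 in Oligo1a (859 and 1491 against 1271 and 1616 CPM) and -0.38 in Oligo1b (926 and 1182 against 578 and 1019), and the difference between them 0.70 (edgeR adjusted p = 0.0106, 0.425 without both batch 1 libraries). Il33, a nuclear cytokine of mature oligodendrocytes, stood at 978 and 1182 CPM in gray and 1237 and 1782 in white matter of Oligo1a. In Oligo1b it stood at 1215 and 1293 in gray and 880 and 1560 in white matter, so that the batches went opposite ways. The tissue difference of Oligo1a exceeded that of Oligo1b by 0.53 (edgeR adjusted p = 0.0457), a call that 4 of 12 alternative settings kept. Sgk1 (-0.98), Fam107a (-2.23) and Usp2 (-1.24) had more negative tissue differences in Oligo1a. In batch 1 Sgk1 stood at 3636 CPM in gray and 2551 in white matter of Oligo1a and at 1572 and 2966 in Oligo1b, and in batch 2 at 378 and 266 against 344 and 343. For the genotype difference in white matter, edgeR called 12 of 10724 genes against Oligo1b (0.112%), all with a more positive value in Oligo1a. DESeq2 called 2 other genes and none of these 12. Among the 12 were Hopx (1.38) and Enpp6 (1.31), whose genotype difference within Oligo1a alone was not called (edgeR adjusted p = 0.321 and 0.333). Ly6h, also called, stood at 30.6 CPM in WT white matter 2 of Oligo1b and at most 0.578 in its other libraries. Leaving out 1 library gave 0 (without Rag1-/- white matter 3), 2 (without Rag1-/- white matter 2) or 3 (without WT white matter 1) to 23 calls (without WT gray matter 2), and leaving out both batch 1 libraries 7. Against Oligo1c it called 0 of 10960 (247 at an unadjusted p under 0.05; DESeq2 0, with 41), but 28 without WT white matter 2 and 2 without both batch 1 libraries.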

How the data were processed

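Single-cell 3′ RNA sequencing was done on brain cells of 8 libraries. The deposited values were raw UMI counts per gene and cell, which the authors made with Cell Ranger (version 4 in the submitters' processing notes, different versions for WT and Rag1-/- libraries in the study's methods) on genome build mm10. The cluster and library of each cell were taken from the deposited annotation, after the authors' cell filters, with no doublet caller run here. Members and gene lists were chosen with earlier results of these data known. The joint table listed 20354 genes, of which the 17001 present in the tables of both genotypes were used.

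UMIs were summed over the Oligo1a cells of each library, 392453 to 6849891 in all, and 10543 genes that passed filterByExpr were tested with the edgeR 4.0.16 quasi-likelihood F test (TMM factors, all 8 libraries in 4 groups, Benjamini-Hochberg adjustment, adjusted p of at most 0.05) in R 4.3.3. Differences from Oligo1b and Oligo1c were interaction terms with the library as a block, and shares were tested with edgeR on cell counts per cluster and by exact permutation tests. DESeq2 1.42.0, no filter, all joint-table genes, cells under 20000 UMIs, the mouse pool as a block, and leaving out libraries were alternatives. The one without both WT batch 1 libraries was added after seeing the data. Deviations of gray and white matter of a batch from their group means correlated at r = 0.304 over genes, and the pairing comes from the study's list of mice and the batch numbers in the sample titles. Cells were thinned to 2000 UMIs with a fixed seed. Cells of the same libraries outside the joint oligodendrocyte table, with at least 20 UMIs over the microglial list, gave the background. They are called microglia here. Their annotated cell type was not used, so other cell types and doublets may be among them. Named genes were the 10 called genes with the largest change in each direction whose libraries do not overlap, the 15 highest and 10 lowest ratios to other oligodendrocytes with 1 sign in 8 libraries and 20 CPM, the 8 highest and 8 lowest against Oligo1b and Oligo1c, and members of the lists, with other genes named only where stated or where another result turned on them. Gene positions are from GENCODE on GRCm38. Intervals cover counting error only.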

Additional observations from a re-analysis of the deposited data

Results flagged for a closer look

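The following 19 genes had a tissue difference in WT mice that differed between Oligo1a and Oligo1b by the edgeR interaction test, with the ratio of Oligo1a to Oligo1b in both white matter libraries on 1 side of that in both gray matter libraries. Values are the log2 fold change of white over gray matter in Oligo1a minus that in Oligo1b, and the cause was not tested for any of them. More positive in Oligo1a were H2-D1 (1.13), Jph4, a junctophilin (0.92), Cryab, a small heat shock protein (0.88), Fabp5, a fatty acid-binding protein (0.84), Opalin (0.70), Cd9 (0.62), Car2, a carbonic anhydrase (0.61) and Il33 (0.53). More negative were Basp1 (-3.92), B3galnt1, a glycosyltransferase (-3.24), Fam107a (-2.23), Fxyd1, a regulator of the sodium pump (-2.20), Plin3 (-1.35), Usp2, a deubiquitinase (-1.24), Nfkbia, the inhibitor of NF-kappaB (-1.003), Tppp3 (-0.99), Sgk1 (-0.98), Apbb2 (-0.89) and Anln (-0.73). Without both batch 1 libraries edgeR called Cd9, H2-D1 and Plin3, from 1 library per WT tissue with the spread of Rag1-/- white matter, and DESeq2 called no gene. In Fxyd1, Sgk1, Nfkbia, Fam107a, Usp2, Apbb2 and B3galnt1 the batch 1 libraries held the highest WT levels of both clusters, such as 502 and 387 CPM of Nfkbia in Oligo1a against 79.8 and 74.3 in batch 2. No group had enough libraries to look for a single library apart from its group.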

How the results depend on the processing

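Counts of called genes moved with the settings as follows. With no filter on low counts they were 61 for tissue in WT, 211 for genotype, 68 for tissue in Rag1-/-, 12 for the tissue difference between genotypes, 4 against Oligo1c and 58 against Oligo1b. With the mouse pool as a replicate block they were 108 for tissue in WT, 47 in Rag1-/- and 2 between genotypes, with 1 residual degree of freedom. The pairing left the share of Oligo1a uncalled (0.04 in WT, adjusted p = 0.953 by edgeR). DESeq2 gave 6 for tissue in Rag1-/- and 0 against Oligo1b. Cells under 20000 UMIs gave 5 for tissue in Rag1-/- and 1 against Oligo1c, and all genes of the joint table gave 608 for genotype. Without both WT batch 1 libraries the counts were 2 for tissue in WT, 6 in Rag1-/-, 15 against Oligo1c and 4 against Oligo1b.

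Leaving out 1 library at a time, where a lone sample is assumed to vary like the other groups, the counts ranged from 0 (without WT gray matter 2) to 6 for tissue in WT, 30 (without WT white matter 2) to 80 for genotype, 0 to 7 for tissue in Rag1-/-, 0 to 2 between genotypes, 0 to 11 (without WT gray matter 2) against Oligo1c, and 2 (without WT white matter 1) to 139 (without WT gray matter 2) against Oligo1b. The share of Oligo1a ranged from -0.24 (without WT white matter 2) to 0.29 for tissue in WT, from 0.20 to 0.72 for genotype and from 0.41 to 0.56 for tissue in Rag1-/-. The WT share also turned to -0.11 without WT gray matter 2 and to -0.26 with TMM factors. Within Oligo1 the share in Rag1-/- was 1.03, called by edgeR from 1 gray matter library (exact permutation p = 0.25, the smallest possible). Median genes per cell, thinned, differed by -16.75 to 19.25 for tissue in WT. The cause of these moves was not tested. Of the values of single named genes under these settings, 309 kept direction and call, 56 kept the direction and lost the call, and none reversed. For the 5 genes called for tissue in WT, 39 values kept the call and 31 lost it: of 14 settings, C4b was called in 13, Serpina3n in 8, and H2-D1, Ldhb and 7630403G23Rik in 6 each. The smallest libraries held 47 (WT gray matter 1), 61 (WT white matter 1), 146 (WT gray matter 2) and 152 Oligo1a cells (Rag1-/- gray matter).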

Other observations

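Gene groups outside the comparisons gave the following values. Of 81 cytosolic ribosomal protein genes 77 had a positive mean log2 ratio of Oligo1a to the other oligodendrocytes, 18 of them in all 8 libraries, with a median of 0.10. Of all 10543 genes tested 4596 had a positive mean ratio, 401 of them in all 8 libraries, with a median of -0.03. Of 16 glucocorticoid-type genes 13 were positive, with a median of 0.50. Heat shock and chaperone genes summed to 7188 CPM in WT gray matter batch 1 and 10096 in WT white matter batch 1, and to 12510 to 14956 in the other 6 libraries. Iron handling genes summed to 20622 to 28893 CPM in the gray matter and 28252 to 33208 in the white matter libraries, with 13 genes tested and a median log2 fold change of 0.20 between WT tissues. None was called by edgeR without the block, and Trf (transferrin) was called with the mouse pool as block (0.63 ± 0.13, edgeR adjusted p = 0.000597). Of all 10543 genes 0.0379% were called higher without the block and 0.645% with it.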
